A study of Homo sapiens with 22 samples.

Results

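The transcription factor gene NFE2L2, which encodes NRF2, 7 of its well-known target genes and both genes of the iron storage protein ferritin were followed through drug treatment of neuroblastoma cells. These 10 genes (NFE2L2, NQO1, HMOX1, GCLM, GCLC, TXNRD1, SRXN1, SLC7A11, FTH1 and FTL) were chosen by name from the 35237 genes of the count table. The choice was made with earlier results of these data known. All 10 passed the filter on low counts in every fit.

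The study compared untreated neuroblastoma cell lines with cells kept in PP121, an inhibitor of tyrosine kinases and phosphoinositide kinases, and bufalin, a cardiac glycoside that inhibits the sodium pump. Both lines, SK-N-AS and GIMEN, are labelled mesenchymal, 1 of the states that neuroblastoma cells take up. RNA-seq libraries of total RNA came from 6 groups, 22 libraries in all. Untreated SK-N-AS cells grew in DMEM with 10% FBS (n = 4). The group S1D4 spent 4 days in 5 µM PP121 in DMEM with 1% FBS (n = 4). Cells that had passed this stage then received 5 µM PP121 with 100 nM bufalin in Neurobasal medium with B27, for 4 days in S2D4 (n = 4) and for 30 days in S2D30 (n = 4). GIMEN cells were untreated in RPMI with 10% FBS (n = 3) or spent 30 days in 2.5 µM PP121 with 10 nM bufalin in RPMI with 1% FBS (GIMEN D30, n = 3). Serum therefore changed together with the compounds in S1D4 and GIMEN D30, and the whole medium did so in S2D4 and S2D30. The effects of medium or serum and of the compounds cannot be told apart.

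NRF2 is held at low protein levels by KEAP1, which brings it to a ubiquitin ligase for degradation. Oxidants and electrophiles modify KEAP1, and NRF2 then enters the nucleus, pairs with a small MAF protein and binds antioxidant response elements in its target genes. The targets make glutathione, keep thioredoxin and peroxiredoxin reduced, and detoxify quinones and heme. Ferritin stores the iron that heme breakdown and iron uptake release, and its genes are also NRF2 targets, while ferritin protein is mainly set by translation. An mRNA level of NFE2L2 therefore does not measure NRF2 activity.

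NRF2 binds the antioxidant response element, and the matches to it within the promoters of these genes are shown for that reason. RefSeq promoters (build GRCh38.p14) were matched by symbol for 7 of the 10 genes, 9 promoters in all, and the 250 bases before each start were searched on both strands for the core TGACNNNGC. A match was found in 3 of the 9 promoters (33.3%), which belong to GCLM and TXNRD1, against 10.9% of all 35116 promoters. TXNRD1 has 2 of these promoters, and counted by gene the matches were in 2 of 7 genes (28.6%) against 13.2% of all 27305 genes with a promoter. Capitals mark the match in the lines that follow, each read 5′ to 3′ on the strand of the gene.
GCLM, minus strand, chr1:93909446-93909474: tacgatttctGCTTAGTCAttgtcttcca
TXNRD1, first promoter, plus strand, chr12:104215670-104215698: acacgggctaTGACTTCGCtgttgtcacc
TXNRD1, second promoter, plus strand, chr12:104286920-104286948: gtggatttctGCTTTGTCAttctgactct
The matches of GCLM and of the second TXNRD1 promoter lie on the opposite strand, where they read TGACTAAGC and TGACAAAGC. They begin 34, 99 and 102 bases before the respective start. In the GENCODE annotation of GRCh38, 11 of the 29 bases shown for GCLM and all 29 of the second TXNRD1 stretch fall in annotated exons of the same gene. No match was found within these windows for FTL, GCLC, NFE2L2, NQO1 and SRXN1, and bases further from the start were not searched. A match is a description of letters, and binding was not measured in these data.

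The libraries held 16456484 to 37506800 counts each. The labels do not say whether replicates were separate cultures, so p-values measure the spread between these libraries, which may be technical. No 2 libraries were identical, and libraries of a group correlated at 0.9673 or more. Replicate 4 of S2D4 stood apart from the other 3, and replicates 1 and 2 stood apart from 3 and 4 in untreated SK-N-AS and S1D4. All 9 mesenchymal markers reached 1 CPM (counts scaled to the library size) on average in each group, but their summed level was 940 to 1487 CPM in untreated SK-N-AS against 38280 to 39870 CPM in untreated GIMEN. Of 9 adrenergic markers, 8 reached 1 CPM in untreated SK-N-AS, where the list summed to 1598 to 1714 CPM. In untreated GIMEN 5 did so, PHOX2A and TH were at 0, and the list summed to 1107 to 1138 CPM. The untreated libraries of both lines thus carried some adrenergic transcripts that the mesenchymal label does not name, but not to a like degree. Of 8 adrenergic markers tested, 7 were higher and 1 lower in untreated SK-N-AS than in untreated GIMEN (median log2 difference 3.19). Over all genes 38.6% were higher and 35.3% lower. In S2D30 the adrenergic sum was 311.8 to 406.4 CPM and the mesenchymal sum 3198 to 3949 CPM, with 7 of 9 mesenchymal markers higher and 2 lower than untreated. In GIMEN the mesenchymal sum moved the other way, to 20620 to 23700 CPM at D30, with 1 of 9 markers higher and 7 lower. The adrenergic sum was lower there too, at 771.9 to 892.3 CPM, with 1 of 6 tested markers higher and 3 lower. The part that these shifts play in the results was not tested. Among 8 markers of white blood cells and macrophages, CD3E was at 0 in SK-N-AS, and the list summed to 170.5 to 216.2 CPM in untreated SK-N-AS and 103.5 to 156.4 CPM in S2D30. PTPRC made up most of the first sum (177 CPM on average) and CD68 most of the second, and of the 5 markers tested 4 were higher in S2D30 and 1, PTPRC, was lower. In GIMEN the list summed to 98.57 to 112.3 CPM untreated and 180.4 to 414.7 CPM at D30. The 4 Schwann cell markers summed to at most 7.272 CPM in any library. In bulk RNA, fewer cells of a type and less RNA per cell cannot be told apart.

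After 30 days SK-N-AS cells carried more mRNA of NFE2L2, of 6 of its 7 listed targets and of both ferritin genes than untreated cells. These were 9 of 10 genes, in a comparison where 70.3% of all 15810 genes tested were called and 33.8% were higher. Because earlier results were known when the genes were chosen, counts over the 10 genes, here and below, are descriptions and not tests. The largest rises were those of the cystine transporter gene SLC7A11 (11.1-fold) and of the ferritin genes FTH1 (3.83-fold) and FTL (2.93-fold). The earlier steps differed from this: after stage 1 both ferritin genes and HMOX1 were lower than in untreated cells, and after 4 days of stage 2 NQO1, GCLM and TXNRD1 were lower. GIMEN cells after 30 days shared the rises of NFE2L2, GCLC, TXNRD1 and FTL, while SLC7A11 was 5.48-fold lower and NQO1 and HMOX1 were lower too. SRXN1 was also called higher in GIMEN, by a small rise that lost its call in 9 of 15 alternatives. The SK-N-AS comparisons with untreated cells share the same 4 untreated libraries, so they are not independent of each other.

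**Figure D1:**
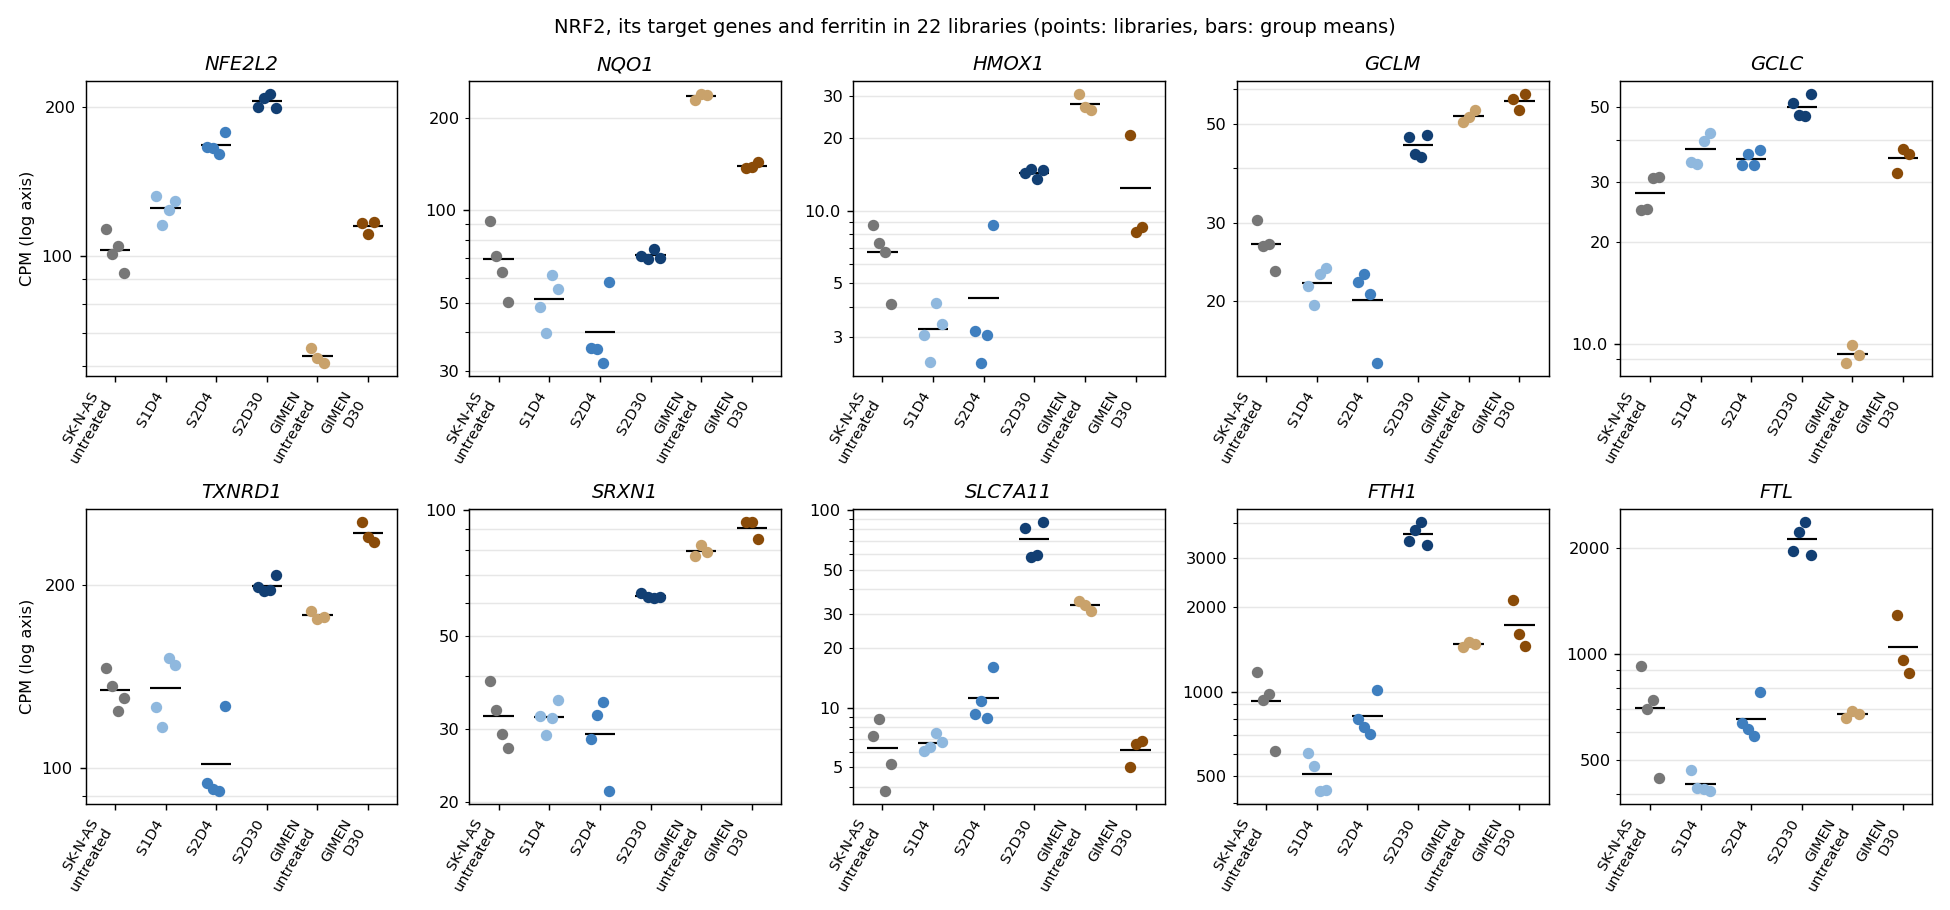
CPM of each gene (log axis, 1 panel per gene) in the 22 libraries, as points by group, with group means as bars. NFE2L2 has its highest group mean in S2D30, and FTH1 and FTL stand highest in S2D30, where FTH1 reached 3326 to 4030 CPM.

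NFE2L2, the gene of the factor itself, increased at each step in SK-N-AS. CPM here was scaled over all 22 libraries. Untreated SK-N-AS libraries held 114, 101, 105 and 92.8 CPM of NFE2L2, S1D4 libraries 132, 116, 124 and 129 CPM. S2D4 libraries held 167, 166, 161 and 179 CPM, and S2D30 libraries 201, 209, 212 and 199.9 CPM. None of these 4 groups overlapped with its neighbour in time. Against untreated cells the log2 change was 0.26 (SE 0.075, edgeR adjusted p 0.0125) in S1D4, 0.67 (SE 0.075, adjusted p 9.46e-07) in S2D4 and 0.96 (SE 0.076, adjusted p 7.57e-09) in S2D30. GIMEN libraries went from 65.4, 62.3 and 61 CPM untreated to 117, 111 and 117 CPM at D30. All D30 libraries lay above all untreated ones (log2 change 0.84, SE 0.058, edgeR adjusted p 1.64e-07). The order of the group means was S2D30, S2D4, S1D4, GIMEN D30, untreated SK-N-AS and untreated GIMEN, and GIMEN D30 overlapped with both groups next to it. In the GENCODE annotation 17.6% of the exon bases of NFE2L2 overlap AC019080.1 on the same strand, a gene with 0 to 3 counts per library. Exons of other genes lie opposite 4.08% of the exon bases. Among those genes, AGPS had 842 to 3118 counts per library, and the sources used here do not give whether the strand of reads was used in counting.

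Glutathione is made in steps, the first of which is carried out by glutamate-cysteine ligase, with the catalytic subunit GCLC and the modifier subunit GCLM. GCLC was higher than untreated in each treated group. It stood at 24.7, 25, 30.8 and 31 CPM in untreated SK-N-AS and at 34.3, 34, 39.6 and 41.9 CPM in S1D4. S2D4 libraries held 33.7, 36.3, 33.6 and 37.2 CPM of GCLC, and S2D30 libraries 51.5, 47.2, 47 and 54.4 CPM. Each treated library lay above each untreated one, S1D4 and S2D4 overlapped, and S2D30 lay above both. Log2 changes against untreated cells were 0.40 (SE 0.098), 0.30 (SE 0.098) and 0.81 (SE 0.098), with edgeR adjusted p-values of 0.00367, 0.0127 and 1.38e-06. In GIMEN the level of GCLC moved from 8.77, 9.92 and 9.27 CPM to 31.8, 37.4 and 36.4 CPM. This was a 3.70-fold rise (log2 fold change 1.89, SE 0.10, adjusted p 1.80e-08), and 8.97% of the genes tested in GIMEN had a larger absolute change.

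GCLM did not follow its partner in the first steps. Its untreated SK-N-AS libraries held 30.5, 26.7, 26.9 and 23.5 CPM, those of S1D4 21.6, 19.6, 23.1 and 23.8 CPM. In S2D4 GCLM stood at 22.2, 23.1, 20.8 and 14.6 CPM and in S2D30 at 46.9, 43, 42.3 and 47.3 CPM. S1D4 overlapped with untreated, S2D4 lay below it and S2D30 above it. Its log2 change was -0.32 in S1D4, which was not called (SE 0.13, edgeR adjusted p 0.0628) except without untreated replicate 4 (-0.38). It was -0.46 in S2D4 (SE 0.13, adjusted p 0.00579) and 0.70 in S2D30 (SE 0.13, adjusted p 0.000129). With GC content and length trends removed, the S2D30 value of GCLM was 0.44 (adjusted p 0.00657). In GIMEN the GCLM libraries held 50.7, 51.9 and 53.9 CPM untreated and 56.9, 54 and 58.4 CPM at D30. These groups did not overlap, but the log2 fold change of 0.09 was not called (SE 0.063, adjusted p 0.235).

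The counts of GCLC over those of GCLM give the balance of both subunits within a library, free of library scaling. Its size also depends on gene length, so only its change between groups is described, and this ratio was chosen after the values were seen. The ratio was 0.809, 0.935, 1.14 and 1.32 in untreated cells and 1.59, 1.73, 1.72 and 1.76 in S1D4. It was 1.52, 1.57, 1.61 and 2.56 in S2D4 and 1.10, 1.10, 1.11 and 1.15 in S2D30. S1D4 and S2D4 lay wholly above untreated, while S2D30 overlapped with it. Both of the first differences had an exact two-sided permutation p of 0.0286, the smallest that 4 against 4 allow, and 0.0571 after adjustment over 14 tests of ratios. For S2D30 against untreated the exact p was 0.6. In GIMEN the ratio went from 0.173, 0.191 and 0.172 to 0.559, 0.693 and 0.623 without overlap. With 3 against 3 the exact p of 0.1 is the smallest possible.

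**Figure D2:**
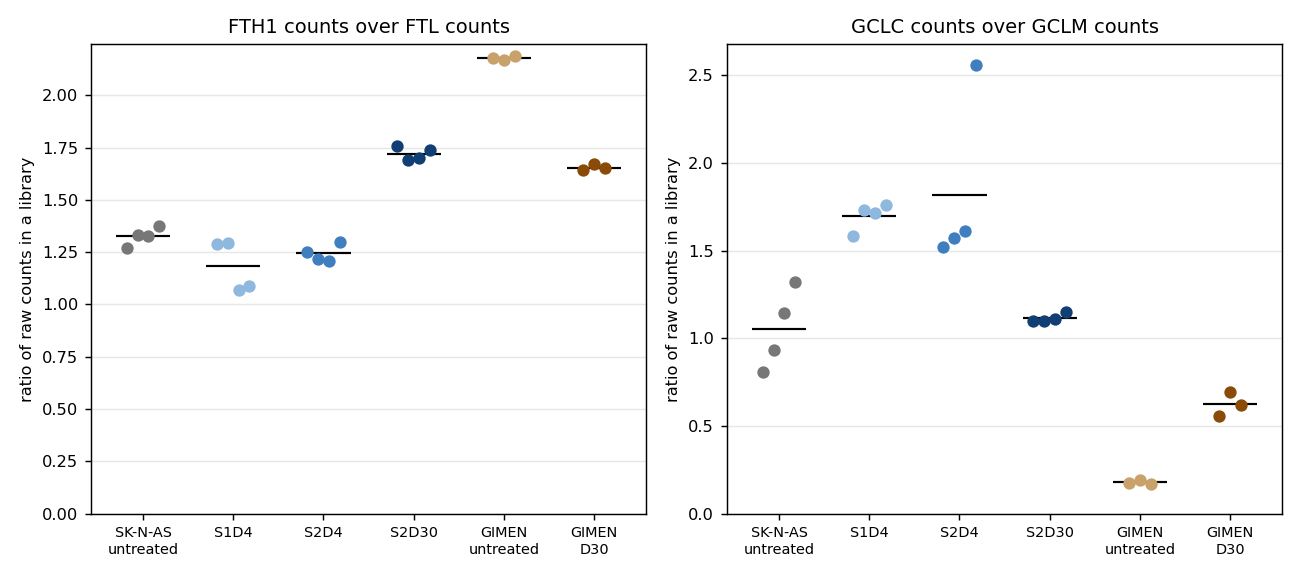
Ratio of raw counts in each library (points) with group means (bars), for FTH1 over FTL on the left and GCLC over GCLM on the right. The FTH1 to FTL ratio was highest in untreated GIMEN at 2.17 to 2.19, and the GCLC to GCLM ratio was lowest there at 0.172 to 0.191.

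SLC7A11 encodes the light chain of the cystine-glutamate exchanger, which brings in cystine for glutathione synthesis. Untreated SK-N-AS libraries held 7.25, 8.74, 3.82 and 5.19 CPM and S1D4 libraries 6.03, 6.36, 7.47 and 6.70 CPM. S2D4 libraries held 9.36, 10.8, 8.85 and 16.1 CPM of SLC7A11, while the S2D30 libraries held 81, 58.3, 59.2 and 87.1 CPM. Untreated and S1D4 overlapped, S2D4 lay just above both, and S2D30 lay far above all of them. SLC7A11 changed against untreated by 0.06 on the log2 scale in S1D4 (SE 0.24, edgeR adjusted p 0.879), 0.82 in S2D4 (SE 0.23, adjusted p 0.0061) and 3.47 in S2D30 (SE 0.25, adjusted p 1.87e-09). The S2D4 call was lost with GC content and length trends removed (0.49, adjusted p 0.117), and the value was 0.59 (adjusted p 0.0265) without S2D4 replicate 4. In S2D30, 7.77% of the genes tested had a larger absolute change than SLC7A11.

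GIMEN moved the opposite way for SLC7A11. Untreated GIMEN libraries held 34.9, 33.3 and 30.9 CPM and D30 libraries 5.05, 6.60 and 6.81 CPM. All D30 libraries lay below all untreated ones, and the log2 change was -2.45 (SE 0.12, edgeR adjusted p 9.08e-09). The difference between the 30-day changes of the lines was 5.91 on the log2 scale (SE 0.32, adjusted p 3.25e-10). Of the genes tested for this difference, 2.38% had a larger absolute value. An antisense gene, SLC7A11-AS1, lies opposite 8.97% of the exon bases of SLC7A11.

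Thioredoxin reductase 1, encoded by TXNRD1, keeps cytosolic thioredoxin reduced at the expense of NADPH. TXNRD1 stood at 146, 136, 124 and 131 CPM in untreated SK-N-AS and at 126, 117, 152 and 148 CPM in S1D4. S2D4 libraries held 94.8, 92.6, 91.9 and 127 CPM, and S2D30 libraries 199, 196, 196 and 207 CPM. Replicate 4 was the only S2D4 library within the untreated range, and S2D30 lay above all other SK-N-AS libraries. TXNRD1 had a log2 change of -0.01 in S1D4 (SE 0.11, edgeR adjusted p 0.944), -0.44 in S2D4 (SE 0.11, adjusted p 0.00199) and 0.53 in S2D30 (SE 0.11, adjusted p 0.000305). Without S2D4 replicate 4 the S2D4 value of TXNRD1 was -0.56 (adjusted p 3.24e-05). In GIMEN TXNRD1 moved from 181, 176 and 177 CPM to 253, 240 and 236 CPM, with no overlap. Its log2 change there was 0.42 (SE 0.056, adjusted p 3.91e-05).

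SRXN1 encodes sulfiredoxin, which repairs overoxidised peroxiredoxins. It stood at 39, 33.3, 29.1 and 27 CPM in untreated SK-N-AS, and at 32.1, 29, 31.8 and 35.2 CPM in S1D4. S2D4 libraries held 28.3, 32.4, 34.7 and 21.3 CPM and S2D30 libraries 63.2, 61.9, 61.4 and 62 CPM. The first 3 groups overlapped, and S2D30 lay above them with a narrow spread. SRXN1 was called in S2D30 alone among the comparisons with untreated SK-N-AS (log2 fold change 0.91, SE 0.14, edgeR adjusted p 1.61e-05). Its values were -0.03 in S1D4 and -0.18 in S2D4, with adjusted p-values of 0.876 and 0.271. GIMEN libraries held 77.5, 82.6 and 79.3 CPM untreated and 93.4, 93.4 and 85.2 CPM at D30. This rise of 0.16 (SE 0.061, adjusted p 0.0356) was small and lost its call in 9 of 15 alternatives, among them the fit with a replicate block (adjusted p 0.0573). In the annotation 84.6% of the 75-base words of SRXN1 also occur in AL121758.1, which overlaps it on the same strand and has no row of its own in the table. Reads of both cannot be told apart.

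NQO1 encodes a quinone reductase and is a widely used readout of NRF2 activity. It was the 1 gene of the 10 that was not called in S2D30 against untreated. Untreated SK-N-AS libraries held 92, 71.1, 63 and 50.3 CPM and S1D4 libraries 48.2, 39.8, 61.7 and 55.4 CPM. S2D4 libraries held 35.5, 35.4, 31.8 and 58.2 CPM, and S2D30 libraries 71.1, 69.5, 74.8 and 69.7 CPM. The S2D30 libraries lay within the untreated range, and 3 of 4 S2D4 libraries lay below it. NQO1 had a log2 change of -0.46 in S1D4 (SE 0.19, edgeR adjusted p 0.0712), -0.82 in S2D4 (SE 0.20, adjusted p 0.00163) and 0.00 in S2D30 (SE 0.19, adjusted p 0.984). The S1D4 value of NQO1 was called without untreated replicate 4 (-0.58, adjusted p 0.0216), and that of S2D4 was -1.05 (adjusted p 4.53e-05) without S2D4 replicate 4. GIMEN had the highest level of NQO1, 229, 238 and 237 CPM untreated, and 137, 138 and 143 CPM at D30. The fall was -0.78 (SE 0.057, adjusted p 2.62e-07), with no overlap. In the annotation AC092115.2 lies opposite 17.7% of the exon bases of NQO1, and it has no row of its own in the table.

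HMOX1 encodes heme oxygenase 1, which opens heme and releases its iron. Its low counts and wide spread in SK-N-AS limit what can be read from it. Untreated SK-N-AS libraries held 8.73, 7.34, 6.73 and 4.09 CPM and S1D4 libraries 3.05, 2.35, 4.13 and 3.37 CPM. S2D4 libraries held 3.17, 2.33, 3.06 and 8.75 CPM, and S2D30 libraries 14.3, 14.9, 13.6 and 14.8 CPM. S1D4 overlapped with untreated at 1 library, S2D4 replicate 4 reached the level of the highest untreated library, and S2D30 lay above all of them. The S1D4 value of -1.09 (SE 0.34, edgeR adjusted p 0.0174) lost its call without untreated replicate 1 (-0.90, adjusted p 0.0659) and without S1D4 replicate 2 (-0.96, adjusted p 0.0539). The S2D4 value of -0.65 (SE 0.33, adjusted p 0.0969) was not called, but without S2D4 replicate 4 it was -1.27 (adjusted p 0.00018). It was called without untreated replicate 4 (-0.82) and with upper-quartile scaling (-0.75) too. In S2D30 HMOX1 was higher by 1.06 (SE 0.33, adjusted p 0.00823).

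In GIMEN, HMOX1 stood at 30.4, 26.9 and 26.1 CPM untreated and at 20.6, 8.19 and 8.54 CPM at D30. D30 replicate 1 lay well above the other 2, though below each untreated library. Its change on the log2 scale was -1.18 (SE 0.27, edgeR adjusted p 0.00207), and -1.75 (adjusted p 7.02e-08) without that library. HMOX1 was thus higher in SK-N-AS and lower in GIMEN after 30 days, and the difference between these changes was 2.22 (SE 0.39, adjusted p 0.000146).

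**Figure D3:**
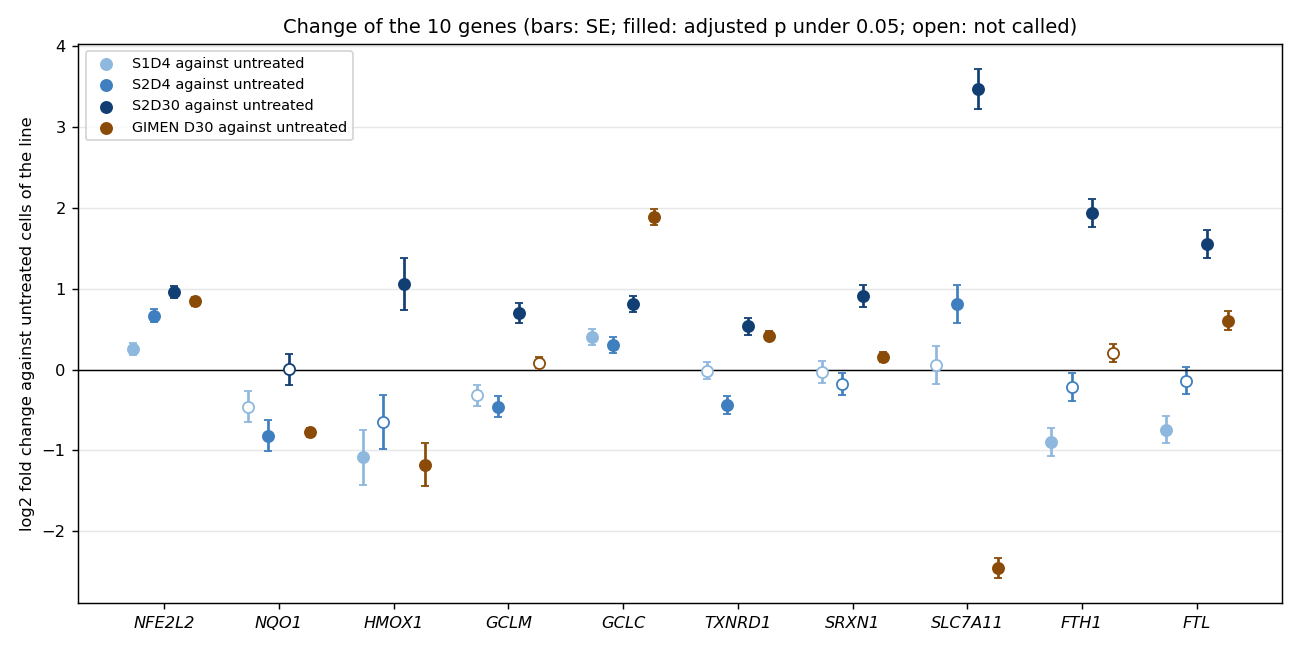
Log2 fold change against untreated cells of the same line (y axis, bars are SE) for the 10 genes (x axis) and 4 treated groups, with filled points where the adjusted p was under 0.05. SLC7A11 holds both the highest value, 3.47 in S2D30, and the lowest, -2.45 in GIMEN D30.

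Ferritin is a shell of heavy chains, which oxidise iron, and light chains, which help to lay it down. FTH1 encodes the heavy chain. Its untreated SK-N-AS libraries held 1173, 931, 982 and 613 CPM, and S1D4 libraries 604, 541, 443 and 447 CPM. S2D4 libraries held 801, 748, 705 and 1016 CPM, and S2D30 libraries 3445, 3766, 4030 and 3326 CPM. S1D4 lay below untreated, S2D4 overlapped with untreated, and the lowest S2D30 library was far above the highest of the other SK-N-AS libraries. FTH1 had a log2 change of -0.89 in S1D4 (SE 0.17, edgeR adjusted p 0.000662), -0.22 in S2D4 (SE 0.17, adjusted p 0.283) and 1.94 in S2D30 (SE 0.18, adjusted p 4.82e-08). The S2D4 value of FTH1 was called with a term for replicates 3 and 4 (-0.40) and without untreated replicate 4 (-0.36), the library with the least FTH1 of its group.

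FTL, the light chain gene, followed the same course. It stood at 925, 699, 740.0 and 445 CPM in untreated SK-N-AS and at 469, 418, 415 and 410.0 CPM in S1D4. S2D4 libraries held 639, 614, 584 and 782 CPM and S2D30 libraries 1960, 2226, 2371 and 1916 CPM. S1D4 overlapped with untreated at 1 library, and S2D30 lay above all others. The log2 fold changes of FTL were -0.74 (SE 0.17), -0.14 (SE 0.17) and 1.55 (SE 0.17), with edgeR adjusted p-values of 0.00208, 0.479 and 4.22e-07. The S2D4 value of FTL was called when untreated replicate 4 was left out (-0.30). Of all counts, FTH1 and FTL together took 0.177% ± 0.044 (SD, n = 4) in untreated cells, and after treatment 0.105% ± 0.0107 in S1D4, 0.141% ± 0.0153 in S2D4 and 0.573% ± 0.0381 in S2D30.

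In GIMEN the ferritin chains differed in whether they were called. FTH1 stood at 1437, 1501 and 1481 CPM untreated and at 2125, 1607 and 1459 CPM at D30, with overlap. Its log2 fold change was 0.20 (SE 0.12, edgeR adjusted p 0.132), and 0.04 without D30 replicate 1, but it was called without D30 replicate 3 (0.31) and with GC content and length trends removed (0.46). FTL stood at 660, 692 and 677 CPM untreated and at 1295, 961 and 884 CPM at D30, without overlap. FTL rose by 0.60 (SE 0.12, adjusted p 0.000681), by 0.43 (adjusted p 4.43e-05) without D30 replicate 1 and by 0.95 with GC content and length trends removed. Both chains took 0.189% ± 0.00363 (SD, n = 3) of counts untreated and 0.254% ± 0.0458 at D30.

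The counts of FTH1 over those of FTL were also taken as a ratio, chosen after the values were seen. Untreated SK-N-AS libraries had ratios of 1.27 to 1.38, those of S1D4 1.07 to 1.29, those of S2D4 1.21 to 1.30 and those of S2D30 1.69 to 1.76. S2D30 lay above all other SK-N-AS libraries (exact two-sided permutation p 0.0286 against untreated, adjusted p 0.0571). In GIMEN the ratio went from 2.17 to 2.19 down to 1.64 to 1.67 without overlap (exact p 0.1, the smallest possible). The ratio was thus higher after 30 days in SK-N-AS and lower in GIMEN, and neither difference passed 0.05 after adjustment. Both exact p-values were the smallest that the group sizes allow, and that of GIMEN could not pass 0.05. The adjusted values therefore do not decide whether the ratios changed. Processed copies of both genes added little: 25 copies of FTH1 had 2 to 55 counts in all per library, at most 0.183% of FTH1, and 16 copies of FTL at most 0.103% of FTL. Of the 75-base words of FTH1, 51.7% also occur in other genes on either strand. This share includes words opposite FTH1 as well as those of the copies, and the parts were not separated. Reads of the copies may be counted as FTH1 or lost, depending on rules not given in the sources used here. BEST1 lies opposite 62.4% of the exon bases of FTH1 but had at most 0.993% of its counts.

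Over the 10 genes, S1D4 against untreated gave 2 higher and 3 lower calls, where 40.1% of all genes tested were called, 17.6% higher and 22.4% lower. In S2D4 against untreated 3 were higher and 3 lower, against a background of 63.1%. In S2D30 against untreated 9 of 10 were called and all 9 were higher, while 70.3% of all genes were called, 33.8% higher and 36.5% lower. The median log2 fold change of the 10 genes was -0.18, -0.20 and 0.94 in these comparisons, and that of all genes tested was -0.01, -0.02 and -0.03. In S2D30 the share of genes with a larger absolute change was 7.77% for SLC7A11, 18% for FTH1, 23.8% for FTL and 36.2% for HMOX1. This share was 39.7% for NFE2L2, 41.3% for SRXN1, 45.8% for GCLC, 51.3% for GCLM, 61% for TXNRD1 and 99.7% for NQO1.

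The consecutive steps were compared directly too. From S1D4 to S2D4, 4 of the genes rose and 1 fell, against 55.1% of all genes called. NFE2L2 rose by 0.41, SLC7A11 by 0.76, FTH1 by 0.68 and FTL by 0.60 on the log2 scale, with edgeR adjusted p-values of 0.000211, 0.0117, 0.00339 and 0.00582. TXNRD1 fell by 0.43 (adjusted p 0.0031). NQO1, at -0.36, was called without S2D4 replicate 4 (-0.59) and with upper-quartile scaling (-0.47), and GCLM, at -0.14, with GC content and length trends removed (-0.36). The SLC7A11 call was lost with GC content and length trends removed (0.44, adjusted p 0.17) and with a term for replicates 3 and 4 (0.59, adjusted p 0.0727). From S2D4 to S2D30 all 10 genes rose, against 51.3% of all genes called and 24.4% higher. None of the 10 overlapped between these groups, while 50.3% of all genes tested did not overlap and 24.7% lay higher in S2D30 without overlap. The rises ran from 0.29 for NFE2L2 (SE 0.075, adjusted p 0.00404) to 2.66 for SLC7A11 (SE 0.24, adjusted p 1.22e-07). FTH1 rose 4.45-fold, HMOX1 3.27-fold, FTL 3.23-fold, GCLM 2.23-fold and SRXN1 2.13-fold. Without S2D4 replicate 4 the 10 calls held, and the rise of HMOX1 was 2.32 instead of 1.71.

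In GIMEN D30 against untreated 5 of the genes were higher and 3 lower, against 71.4% of 13517 genes called, with a median of 0.18 over the 10 genes and 0.02 over all. The untreated lines differed at most of these genes before any treatment. Of the 10, 2 were higher and 7 lower in SK-N-AS than in GIMEN, while 73.9% of 16246 genes differed. NFE2L2 and GCLC were higher in SK-N-AS by 0.70 (SE 0.083) and 1.56 (SE 0.11) on the log2 scale, with edgeR adjusted p-values of 9.08e-07 and 1.59e-09. SLC7A11 was 5.31-fold, HMOX1 4.16-fold, NQO1 3.42-fold, SRXN1 2.50-fold, FTH1 1.60-fold and TXNRD1 1.34-fold lower in SK-N-AS, and GCLM had a difference of -0.97 on the log2 scale. FTL had a difference of 0.05 and was not called (SE 0.19, adjusted p 0.838). Upper-quartile scaling moved the median of all genes in this comparison from 0.05 to 0.20, and the value of TXNRD1 from -0.42 to -0.27 (adjusted p 0.00292).

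The difference of the 30-day changes between the lines was called for 8 of the 10 genes, against 49.7% of all genes. It was higher in SK-N-AS for NQO1 (0.76), HMOX1 (2.22), GCLM (0.60), SRXN1 (0.74), SLC7A11 (5.91), FTH1 (1.71) and FTL (0.93). It was lower in SK-N-AS for GCLC (-1.09, SE 0.15, edgeR adjusted p 1.51e-05). For NFE2L2 it was 0.10 (SE 0.12, adjusted p 0.526) and for TXNRD1 0.10 (SE 0.11, adjusted p 0.487), neither of them called. Doses, medium and the preceding stage differed between the lines, so line and protocol cannot be told apart in these values.

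The surrounding pathway was described with 5 lists of 91 genes in all. Their counts are to be read against all genes tested, of which 17.6% were higher and 22.4% lower in S1D4, 30.9% and 32.2% in S2D4, 33.8% and 36.5% in S2D30, and 35.5% and 36% in GIMEN D30. Among 15 regulators of NRF2, 11 were higher and 2 lower in S1D4, and 8 higher and 3 lower in both S2D4 and S2D30, with medians of 0.48, 0.65 and 0.70. Small MAF genes, whose proteins pair with NRF2 and with its competitor BACH1, held the largest rise of this list in each comparison with untreated cells. MAFF went from 18.8 ± 3.3 CPM (SD, n = 4) to 178 ± 3.8 CPM in S2D30 (log2 change 3.20, SE 0.18, edgeR adjusted p 1.34e-10). MAFK rose by 2.23 (SE 0.10, adjusted p 5.07e-09) in GIMEN D30, where 12 of 14 tested regulators were higher and 2 lower (median 0.67). KEAP1, which targets NRF2 for degradation, fell in S2D4 by 0.83 (SE 0.082, adjusted p 1.88e-07). Its change in S2D30 was -0.20 (SE 0.081, adjusted p 0.04), with overlap, and in GIMEN D30 KEAP1 rose by 0.37 (SE 0.065, adjusted p 0.000363). RBX1, a subunit of the same ligase, fell by 0.78 in S2D30 and by 1.25 in GIMEN D30. SQSTM1, whose protein sequesters KEAP1, rose by 1.55 from S2D4 to S2D30 (SE 0.28, adjusted p 0.000189). BACH1, a repressor of HMOX1 and other NRF2 targets, was not among the genes chosen by the rule for names and was looked up after its values were seen: it rose by 1.46 in S2D30 and 0.56 in GIMEN D30.

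**Figure D4:**
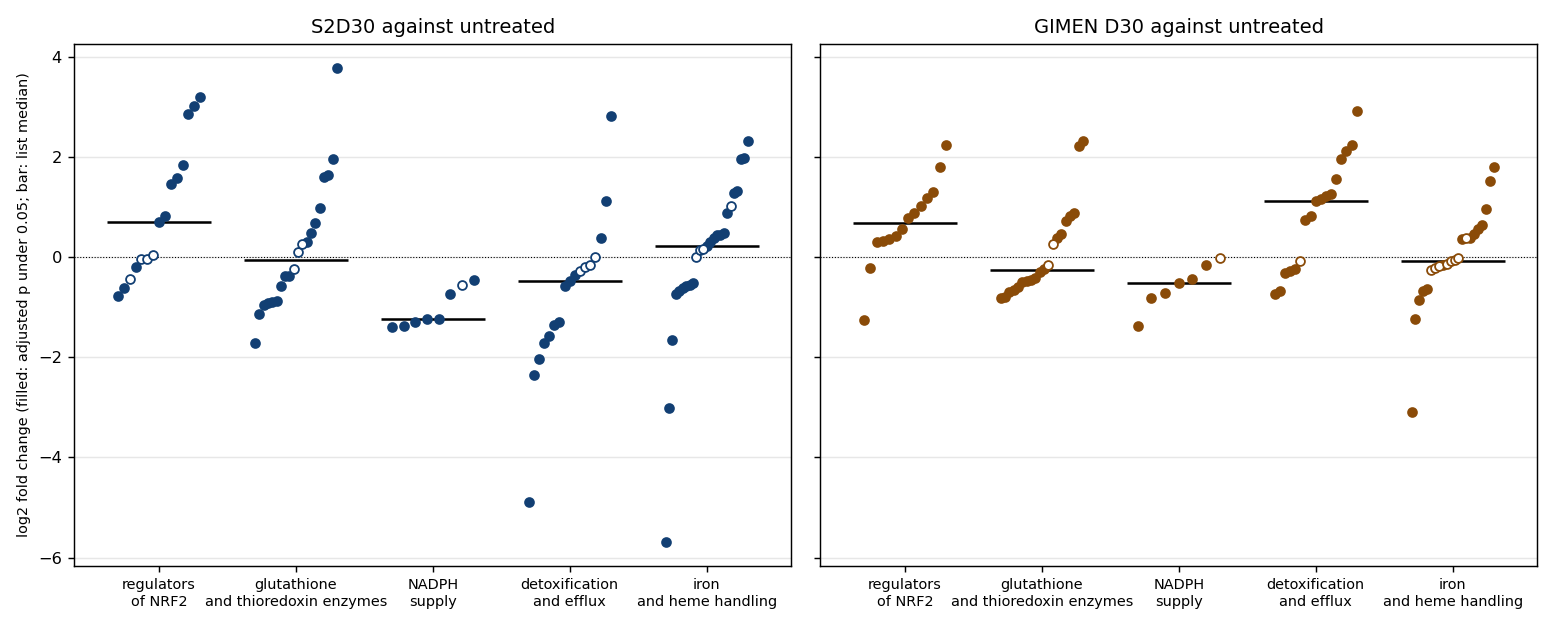
Log2 fold change against untreated (y axis) of each tested gene in the 5 pathway lists (x axis) for S2D30 on the left and GIMEN D30 on the right. Points are genes, filled where the adjusted p was under 0.05, and bars are list medians, which for NADPH supply were -1.24 and -0.52.

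The enzymes of glutathione and thioredoxin metabolism did not move as 1 group. In S2D30, 8 of 20 tested were higher and 9 lower, and in GIMEN D30 7 were higher and 11 lower, with medians of -0.07 and -0.27. These counts compare with 33.8% of all genes higher and 36.5% lower in S2D30, and 35.5% and 36% in GIMEN D30. In S1D4 2 were higher and 8 lower, and in S2D4 6 were higher and 9 lower. SLC3A2, the heavy chain that joins SLC7A11 in the cystine exchanger and also serves other amino acid transporters, rose most in S2D30. It went from 60.7 ± 8.4 to 856 ± 83 CPM (log2 change 3.78, SE 0.16, edgeR adjusted p 3.08e-12). In GIMEN D30 SLC3A2 rose by 0.82 while SLC7A11 fell. GSTP1, a glutathione transferase, fell most in S2D30 (-1.72, SE 0.20, adjusted p 8.78e-07). TXNIP, which binds and inhibits thioredoxin, rose by 2.98 in S2D4 and by 2.32 in GIMEN D30 and fell by 1.39 from S2D4 to S2D30.

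The 8 genes of NADPH supply, which serve NQO1 and both reductase systems, were the list with calls in 1 direction in the comparisons with untreated cells. In S2D30 7 were lower and 0 higher, in S2D4 all 8 were lower, in S1D4 4 were lower, and in GIMEN D30 6 of 7 were lower. Over all genes, 36.5%, 32.2%, 22.4% and 36% were lower in these comparisons. ME1, the cytosolic malic enzyme and a known NRF2 target, fell by 1.39 in S2D30 (SE 0.19, edgeR adjusted p 4.15e-06). IDH1 fell by 2.06 in S2D4 and rose by 1.49 from there to S2D30. TKT, a transketolase of the pentose phosphate pathway, fell by 1.37 in GIMEN D30 (SE 0.095, adjusted p 1.62e-07).

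Other detoxification and efflux genes were mostly lower in SK-N-AS and mostly higher in GIMEN. In S2D30 3 of 17 tested were higher and 10 lower, and in GIMEN D30 11 were higher and 5 lower, with medians of -0.48 and 1.13. Over all genes 33.8% were higher and 36.5% lower in S2D30, and 35.5% and 36% in GIMEN D30. In S1D4 1 was higher and 8 lower, and in S2D4 1 was higher and 11 lower. The difference of the changes was lower in SK-N-AS for 12 of 17 genes and higher for 1, against 25.2% and 24.5% of all genes. PIR, encoding pirin, fell in S2D30 by 2.36 (SE 0.21, edgeR adjusted p 3.80e-08). OSGIN1, an oxidative stress gene, rose by 2.81 in S2D30 (SE 0.22, adjusted p 6.41e-09) and by 2.92 in GIMEN D30 (SE 0.20, adjusted p 1.64e-07). AKR1C1, an aldo-keto reductase with near-identical relatives among which reads may be split, was the gene that the naming rule gave for the lowest difference of changes between the lines (-3.71, SE 0.42, adjusted p 1.61e-06).

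Iron and heme genes were mixed as well, with 12 of 25 tested higher and 9 lower in S2D30, and 8 of 22 higher and 6 lower in GIMEN D30, with medians of 0.23 and -0.07. Over all genes 33.8% were higher and 36.5% lower in S2D30, so the lower calls lay near the background, and 35.5% were higher in GIMEN D30, close to the share of this list. In S1D4 3 were higher and 9 lower, and in S2D4 4 were higher and 10 lower. SLC25A37, which imports iron into mitochondria, rose from 41.8 ± 4.4 to 168 ± 7.5 CPM in S2D30 (log2 fold change 1.97, SE 0.16, edgeR adjusted p 1.45e-08). BLVRB, a biliverdin reductase downstream of heme oxygenase, rose by 1.54 from S2D4 to S2D30 (SE 0.16, adjusted p 6.99e-07). IREB2, whose protein IRP2 represses ferritin translation, fell by 0.49 over the same step (SE 0.12, adjusted p 0.00251). CP, encoding the ferroxidase ceruloplasmin, fell from 20.3 ± 10 to 0.397 ± 0.12 CPM in S2D30 (-5.69, SE 0.52, adjusted p 4.32e-08). SLC48A1, a heme transporter, rose by 1.79 and HMOX2, the constitutive heme oxygenase, fell by 1.23 in GIMEN D30. Transferrin uptake was looked up after its values were seen: TFRC, the transferrin receptor, rose by 0.44 in S2D30 and had a value of -0.02 in GIMEN D30.

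The genes with the nearest pattern over the 6 group means were sought among 10293 genes, by the root mean square difference of centred log2 CPM. For NFE2L2 these were CLPTM1 (0.055) and ESCO1 (0.0596), and for TXNRD1 ZNF76 (0.07) and FAM122A (0.0825). GCLM was nearest to EIF4B (0.108) and SCPEP1 (0.123), and SRXN1 to EIF4B (0.109) and NPTN (0.127). GCLC was nearest to RSAD1 (0.117), NQO1 to UBE2H (0.185), FTL to SPG20 (0.179), FTH1 to GRB10 (0.254) and HMOX1 to MID1 (0.323). SLC7A11 had the most distant neighbour, FAP at 0.606, and its own group means had the widest span of the 10 genes, 3.54 on this scale. The distances were not scaled to this span, which was 1.27 for TXNRD1, so they are not compared between the 10 genes. These distances describe 6 means from the same 22 libraries and carry no test. None of the 10 genes had another of the 10 among its nearest 2. With 10293 genes searched, this does not show that their patterns are unlike, and GCLM and SRXN1 had the same nearest gene.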

How the data were processed

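The authors deposited raw counts per gene and library, per the file headers and the whole-number values. The aligner, counting tool, genome build and use of strand are not given in the sources used here. Groups and doses came from the labels, and 0 columns of counts were left unused. The tests used edgeR 4.0.16 in R 4.3.3, with filterByExpr (minimum count 10, total 15), TMM scaling and the quasi-likelihood F-test, with Benjamini-Hochberg adjustment over all genes tested and a threshold of 0.05. Fits covered the 16 SK-N-AS libraries, the 6 GIMEN libraries, and 14 libraries of both lines for the comparison of the lines. The fits were also run on counts simulated from the kind of model that edgeR assumes. That run held no outlying libraries or split of replicates, so it does not show how the fits deal with these. SD is between replicates and SE is that of the fit. Members and lists were chosen with earlier results of these data known. Of the cell type marker lists, 2 genes are not reported here and were left out of the sums. Of each list, the largest rise and fall of a comparison were eligible for naming if called, at 10 CPM or more in a group and without overlap. Alternatives were other scalings, DESeq2 1.42.0, other filters, a replicate block, a minimum absolute log2 change of 1, fits of only the groups compared or of all 22 libraries, and each library left out. After the data were seen, TMM without the 30 highest genes and the members, removal of GC content and length trends and a term for replicates 3 and 4 were added.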

Additional observations from a re-analysis of the deposited data

Results flagged for a closer look

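Of 40 sets of 4 libraries (10 genes in the SK-N-AS groups), 4 held a library far from the other 3 by Dixon's criterion at the 95% level, which chance meets in about 5% of such sets. Replicate 4 of S2D4 was high for NQO1 (58.2 CPM), HMOX1 (8.75 CPM) and TXNRD1 (127 CPM), and replicate 1 of S1D4 was high for FTL (469 CPM). The cause of these values was not tested.

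The 30-day change differed between SK-N-AS and GIMEN, by the interaction test of edgeR, for 8 of the 10 genes, against 49.7% of all genes tested. As log2 differences (SK-N-AS minus GIMEN) these were 0.763 for NQO1, 2.22 for HMOX1, 0.595 for GCLM, -1.09 for GCLC, 0.736 for SRXN1, 5.91 for SLC7A11, 1.71 for FTH1 and 0.929 for FTL. HMOX1 and SLC7A11 moved in opposite directions in the lines. Line and protocol cannot be told apart here.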

How the results depend on the processing

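Of 1510 recomputed values over all alternatives, 1422 kept their direction and side of the threshold, 50 lost a call, 13 gained one and 25 changed sign, and none of the latter was called with all libraries. A minimum absolute log2 change of 1 left 1 of the 10 genes called in S1D4, 0 in S2D4 and 4 in S2D30 against untreated. It left 0 from S1D4 to S2D4, 6 from S2D4 to S2D30, 3 in GIMEN D30, 5 between the untreated lines and 4 for the difference of the 30-day changes. Of all 15810 genes tested in SK-N-AS, it left 953 higher and 989 lower in S1D4, and 2096 and 2481 in S2D4. The counts were 2807 and 3038 in S2D30, 1406 and 2019 from S1D4 to S2D4, and 1603 and 1506 from S2D4 to S2D30. In GIMEN D30 they were 1599 and 1738 of 13517 genes. Of 16246 genes, 3845 and 3008 were left between the untreated lines, and 1970 and 2265 for the difference of changes. With each library left out in turn, the counts of called genes ran from 4 to 7 (S1D4), 6 to 9 (S2D4), 9 to 9 (S2D30), 5 to 6 (S2D4 against S1D4), 10 to 10 (S2D30 against S2D4), 7 to 9 (GIMEN D30), 9 to 9 (untreated lines) and 8 to 8 (difference of changes).

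Values near 0 changed sign, and so did that of HMOX1 from S1D4 to S2D4. With all libraries HMOX1 was 0.43 there and not called (edgeR adjusted p 0.298), and without S2D4 replicate 4 it was -0.18. TXNRD1 in S1D4 was 0.012 with DESeq2 size factors and with the DESeq2 test, 0.016 with upper-quartile factors, 0.011 without a filter, 0.0027 without GC content and length trends and 0.021 in a model of both groups alone. NQO1 in S2D30 was -0.0051 with upper-quartile factors and -0.024 with the term for replicates 3 and 4. Without GC content and length trends FTL was 0.0059 in S2D4 and -0.19 between the untreated lines, and with the replicate term GCLC was 0.044 from S1D4 to S2D4. Leaving out 1 library gave ranges of -0.069 to 0.060 (TXNRD1), -0.11 to 0.10 (SRXN1) and -0.11 to 0.25 (SLC7A11) in S1D4, -0.30 to 0.053 (FTL) in S2D4, -0.12 to 0.21 (NQO1) in S2D30, -0.18 to 0.64 (HMOX1) from S1D4 to S2D4 and -0.13 to 0.23 (FTL) between the untreated lines. The cause was not tested.

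Same-numbered libraries of S1D4 and untreated SK-N-AS deviated together at correlations of 0.0436 to 0.293, with 3 of 4 pairs over 0.1 and 3 of 4 libraries closest to their own number. In the other comparisons the correlation was at most 0.103, so the numbers were not taken as pairs. With a replicate block the counts of called genes were 5, 6, 9, 5, 10, 7, 9 and 8 in the order above, and the only lost call was that of SRXN1 in GIMEN D30 (0.16, adjusted p 0.0573). Depth limits the precision of low values: HMOX1 had as few as 43 counts in a library of S2D4, and SLC7A11 as few as 80 in an untreated SK-N-AS library.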
